A study of Mus musculus with 9 samples.

Results

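Transcripts of 31 genes that make or import amino acids, move one-carbon units on folate or charge transfer RNAs were followed in bone marrow cells of Spop knockout and wild-type mice. The members were taken by symbol from the deposited tables: 5 genes of serine and glycine synthesis, 3 folate enzymes, 3 enzymes of asparagine and proline synthesis, 7 amino acid transporter chains, 11 cytosolic aminoacyl-tRNA synthetases and 2 genes of stress feedback. All 31 were found among the 37187 genes of the table for LSK cells and the 45076 genes of the table for neutrophils. LSK cells are the lineage-negative, Sca-1-positive, Kit-positive marrow fraction that holds blood stem cells and multipotent progenitors. Neutrophils were sorted by Ly6G, their surface marker.

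Cells draw serine off glycolysis and pass its side carbon to folate, which yields glycine and the one-carbon units used for purines, thymidylate and methionine. Transporters bring in the amino acids that a cell does not make, and synthetases load each amino acid onto its tRNA. When charging fails, the kinase GCN2 (Eif2ak4) phosphorylates the initiation factor eIF2, and translation of the transcription factor ATF4 rises. ATF4 is known to bind and switch on many of these genes. Stem cells at rest are known for low protein synthesis, and dividing progenitors need more of both protein and nucleotides.

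The series compared 2 knockout with 2 wild-type LSK libraries, and 3 knockout with 2 wild-type neutrophil libraries, all from bone marrow of mice aged 4 to 12 weeks. The labels write the genotypes as Spop(D/D) for knockout (KO) and Spop(+/+) for wild type (WT). The labels do not say how the allele was made, in which cells Spop was deleted or whether animals were pooled. Spop encodes the substrate-binding subunit of a cullin-3 ubiquitin ligase, and the series title names MyD88, an adaptor of Toll-like receptor signalling, as its target.

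LSK libraries held 18827892 to 20264417 counted reads and neutrophil libraries 21012702 to 27434086. Values are CPM, reads of a gene scaled to a common library total. Each library's total was first multiplied by its TMM factor, which corrects for the make-up of the library. Spop itself fell by 0.32 on the log2 scale in KO LSK cells (adjusted p = 0.0118, edgeR), a call lost without either WT library (0.0832 and 0.117). In KO neutrophils its log2 fold change was 0.15 (adjusted p = 0.901). One label conflicts: the cell type field of LSK KO replicate 2 reads neutrophil, against LSK in its title. All 4 LSK libraries held 0 reads of Ly6g, and Kit, Ly6a and Cd34 were present in each. Among the neutrophil libraries, the second WT library stood apart with 1896 CPM of B cell markers (3.32 to 77.6 CPM in the other 4) and 37090 CPM of neutrophil markers (208595 to 644705 CPM). The third KO neutrophil library held 18489 CPM of red cell markers, against 3.67 to 3704 CPM in the others.

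Nearly the whole group was higher in KO LSK cells. Of the 31 members, 29 rose and 1 fell (edgeR quasi-likelihood test, Benjamini-Hochberg adjusted p under 0.05), where 21.0% of the 13008 genes tested rose and 21.2% fell. The member that fell was Trib3, and the member that did not pass was Slc1a5. In 30 members both KO libraries lay above both WT libraries (34.6% of all genes tested), and in 1 both lay below (38.3%). The median log2 fold change was 1.04 over the members and -0.03 over all genes. More than a 2-fold rise was called for 16 members, and for 4.51% of all genes. Together the members summed to 7037 and 7113 CPM in the KO libraries, against 3730 and 3752 CPM in the WT libraries. They took 0.666% to 0.672% of all counted reads in KO and 0.391% to 0.400% in WT. In bulk samples, more cells of a type and more RNA per cell cannot be told apart.

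**Figure D1:**
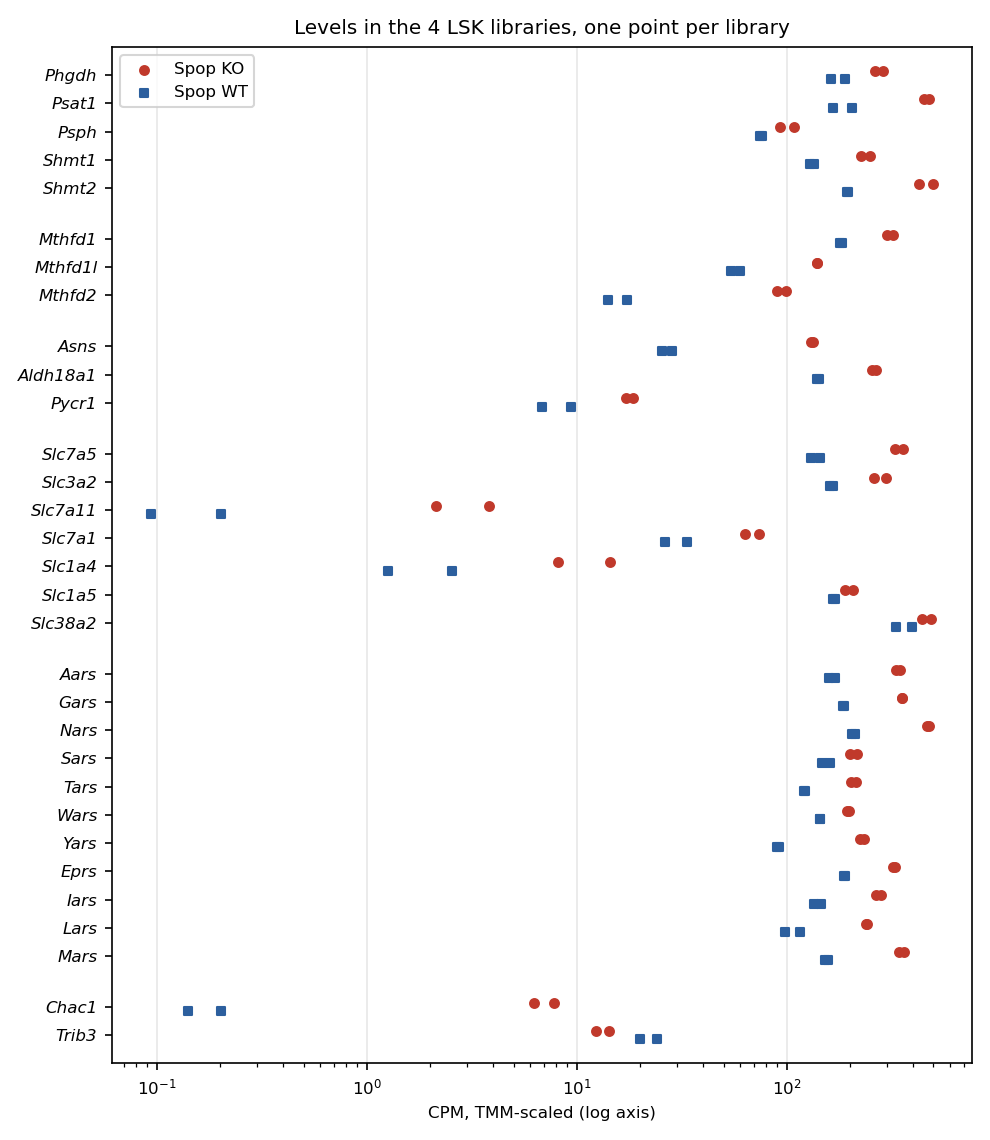
Levels of the 31 members in LSK cells, 1 point per library, on a log axis of TMM-scaled CPM. Circles are the 2 KO and squares the 2 WT libraries, and rows are grouped by role. KO lies right of WT in every row except Trib3, and the widest gaps are at Chac1, Slc7a11, Mthfd2, Slc1a4 and Asns.

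With LSK-WT replicate 1 left out, the members' median log2 fold change was 1.03, against -0.03 over all genes. In a fit that shared its spread with the neutrophil libraries 0 members passed, and over all genes 0 rose and 0 fell. In the fit of the LSK libraries alone, 2738 of all genes rose and 2756 fell. With upper-quartile scaling these were 2207 and 3445, and 28 members rose and 1 fell. Other marker groups moved in the same libraries. Proliferation markers rose in 14 of 15 cases (5851 and 6215 CPM in KO, 3356 and 3216 CPM in WT, none at 0 reads), with only Mki67 not passing. Granulocyte precursor markers such as Mpo rose in 6 of 7 cases (16121 and 18900 CPM in KO, 1643 and 2177 CPM in WT). Of 10 LSK markers 8 fell and 1 rose (2709 and 2961 CPM in KO, 4887 and 4597 CPM in WT). Of 9 B cell markers tested 9 fell, summing to 67.7 and 72.7 CPM in KO and to 247 and 231 CPM in WT, with Pax5 at 0 reads in both KO libraries. Of 10 erythroid markers 8 fell (396 and 491 CPM in KO, 1087 and 1010 CPM in WT). Monocyte and macrophage markers split, with 4 of 10 higher and 5 lower (554 and 794 CPM in KO, 118 and 159 CPM in WT). The part of these groups in the members' rise was not tested.

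The serine branch rose in all of its 5 genes. Phgdh, the dehydrogenase that opens the pathway (chromosome 3, 98313170 to 98339990, minus strand, GRCm38), stood at 262 and 287 CPM in KO and at 189 and 162 CPM in WT. Its rise was 1.56-fold (log2 0.65, SE 0.104, adjusted p = 3.38e-04, edgeR). The aminotransferase Psat1, which acts next, was at 478 and 450 CPM in KO libraries, against 204 and 166 CPM in WT libraries. That is a 2.51-fold rise (log2 1.33, adjusted p = 3.09e-06). Psph, the phosphatase of the last step, had the smallest change of the branch, with 109 and 93.1 CPM in KO and 76.2 and 74.7 CPM in WT. It rose 1.34-fold (adjusted p = 0.0105), and its call was lost without the first WT library (0.0638) or the second (0.0747). An exon overlap with the opposite-strand gene Cct6a covers 10.4% of the exon bases of Psph, and the library kit does not keep the strand. Within each library, Psat1 had 1.82 and 1.57 reads per read of Phgdh in KO, and 1.08 and 1.02 in WT. The genotypes did not overlap in this ratio, which restates the fold changes of both genes and was not tested. Such separation was common in these libraries: for single genes, 34.6% of all tested lay above WT and 38.3% below.

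Serine hydroxymethyltransferases turn serine into glycine and load folate. The mitochondrial form Shmt2 was at 427 and 497 CPM in KO cells and at 194 and 196 CPM in WT cells, a 2.37-fold rise (log2 1.24, SE 0.1, adjusted p = 1.94e-06). The cytosolic form Shmt1 was at 227 and 249 CPM in KO and at 134 and 129 CPM in WT, 1.81-fold higher (log2 0.85, SE 0.0971). Reads of Shmt2 per read of Shmt1 were 1.88 and 1.99 in the KO libraries, against 1.45 and 1.52 in the WT libraries. The WT and KO ratios did not overlap, an order that was not tested.

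The 3 folate enzymes among the members rose as well. Mthfd2, the mitochondrial methylenetetrahydrofolate dehydrogenase that is high in dividing and embryonic cells (chromosome 6, 83305691 to 83325908, minus strand), reached 99.2 and 89.8 CPM in KO and stood at 14.1 and 17.3 CPM in WT. This was a 6.01-fold rise (log2 2.59, 95% confidence interval 2.28 to 2.90, adjusted p = 1.26e-07, edgeR). Mthfd1l, which releases formate from mitochondria, rose 2.43-fold, with 139 and 140 CPM in KO and 54.5 and 60.2 CPM in WT. Mthfd1, the cytosolic enzyme that takes up that formate, rose 1.71-fold, with 300 and 322 CPM in KO and 183 and 180 CPM in WT. The 3 mitochondrial enzymes (Shmt2, Mthfd2, Mthfd1l) had log2 fold changes of 1.24 to 2.59, and the 2 cytosolic ones (Shmt1, Mthfd1) of 0.77 to 0.85, a difference by compartment that was not tested. Mthfd2l, another mitochondrial paralogue and no member, fell, with 7.19 and 7.98 CPM in KO and 13.1 and 13.8 CPM in WT (log2 -0.82, adjusted p = 0.00885, edgeR). Mthfd2 had 0.331 and 0.279 reads per read of Mthfd1 in KO, against 0.0769 and 0.0961 in WT.

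Asparagine and proline enzymes also rose. Asns, the asparagine synthetase (chromosome 6, 7675169 to 7693254, minus strand), stood at 133 and 131 CPM in KO cells and at 25.5 and 28.4 CPM in WT cells. The rise was 4.90-fold (log2 2.29, SE 0.119, adjusted p = 7.11e-08, edgeR). Aldh18a1, which starts proline synthesis from glutamate, was at 253 and 265 CPM in KO and at 140 and 143 CPM in WT, 1.84-fold higher. Pycr1, the mitochondrial reductase that ends it, was low, at 17.2 and 18.5 CPM in KO and at 9.43 and 6.80 CPM in WT, and rose 2.19-fold (adjusted p = 0.00134).

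Of the 7 transporter chains 6 rose. Slc7a5 (LAT1), the carrier of leucine and other large neutral amino acids (chromosome 8, 121881150 to 121907694, minus strand), was at 357 and 328 CPM in KO and at 131 and 143 CPM in WT. It rose 2.50-fold (log2 1.32, SE 0.098, adjusted p = 1.10e-06). Slc3a2 (CD98), the heavy chain that brings Slc7a5 and Slc7a11 to the cell surface, was at 262 and 298 CPM in KO and at 161 and 166 CPM in WT, 1.71-fold higher. Reads of Slc7a5 per read of Slc3a2 were 1.37 and 1.10 in KO and 0.814 and 0.863 in WT. Here too the genotypes did not overlap, and the ratio was not tested.

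Slc7a11 (xCT), which exchanges glutamate for cystine and feeds glutathione synthesis, had 73 and 40 reads in KO LSK libraries, against 4 and 2 reads in WT libraries, near the detection limit. The ratio of summed reads was 20.3 (95% interval 9.06 to 56.6, exact binomial, counting error only; adjusted p = 2.72e-04, edgeR). In CPM these levels were 3.81 and 2.13 in KO and 0.203 and 0.0938 in WT, the lowest mean levels of the group. Slc1a4 (ASCT1), a carrier of serine and alanine, was at 14.4 and 8.14 CPM in KO and at 1.27 and 2.53 CPM in WT, 5.88-fold higher (log2 2.56, SE 0.39). The arginine and lysine carrier Slc7a1 (CAT1) rose 2.30-fold, with 74.2 and 63.2 CPM in KO and 33.5 and 26.3 CPM in WT.

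The glutamine carriers moved least. Slc38a2 (SNAT2) was at 487 and 439 CPM in KO and at 331 and 395 CPM in WT, a 1.28-fold rise (adjusted p = 0.0184). That call was lost without the first WT library (0.249) and with upper-quartile scaling (0.0664). Slc1a5 (ASCT2) was at 189 and 207 CPM in KO and at 167 and 171 CPM in WT (log2 0.23, interval 0.02 to 0.44, adjusted p = 0.0682), and passed only without the first KO library (0.00678). Its libraries did not overlap, but the difference was small.

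All 11 synthetases among the members rose, with log2 fold changes of 0.43 to 1.33 and a median of 0.97. Yars, which charges tyrosine, was at 224 and 233 CPM in KO and at 92.2 and 89.4 CPM in WT, 2.51-fold higher (SE of log2 0.0964, adjusted p = 9.47e-07, edgeR). Mars (methionine) was at 342 and 364 CPM in KO and at 158 and 152 CPM in WT. Nars (asparagine) was at 475 and 467 CPM in KO and at 205 and 211 CPM in WT. Mars rose 2.28-fold and Nars 2.26-fold, and 1.99% of the exon bases of Mars overlap the opposite-strand gene Ddit3. Lars (leucine), with 238 and 242 CPM in KO and 98.0 and 116 CPM in WT, rose 2.25-fold. Aars (alanine), with 345 and 332 CPM in KO and 158 and 171 CPM in WT, rose 2.06-fold, and 14.3% of its exon bases are shared with Exosc6 on the same strand.

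Smaller rises were found for the other synthetases. Iars (isoleucine) rose 1.96-fold, Gars (glycine) 1.90-fold, Eprs (glutamate and proline) 1.72-fold and Tars (threonine) 1.71-fold. Wars (tryptophan) rose 1.36-fold, with 194 and 198 CPM in KO and 144 and 145 CPM in WT. Sars, which charges serine, rose 1.35-fold, with 200 and 216 CPM in KO and 161 and 148 CPM in WT. The call for Sars was lost without the second WT library (adjusted p = 0.0663). Eprs, Iars, Lars and Mars sit in the multi-synthetase complex and had a median log2 fold change of 1.07. The median was 0.92 for the 7 synthetases among the members that work outside it, a difference that was not tested. It covers only a part of the complex, which also holds synthetases that are not members. Of those named further on, Rars and Kars are in the complex (0.85 and 0.63) and Cars and Farsb are not (1.30 and 0.81).

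The last pair, both known as genes that ATF4 and its partner CHOP (Ddit3) switch on under stress, moved in opposite directions. Chac1 degrades glutathione and had 150 and 118 reads in KO LSK libraries, against 4 and 3 reads in WT libraries. The ratio of summed reads was 41.4 (95% interval 19.8 to 104, exact binomial, counting error only; adjusted p = 5.02e-06, edgeR). Trib3, a pseudokinase that binds ATF4 and CHOP and curbs their activity, had 274 and 233 reads in KO and 473 and 426 reads in WT. It fell by 0.72 on the log2 scale (SE 0.191, adjusted p = 0.00901), a call lost without the first WT library (0.0996). KO libraries held 0.547 and 0.506 reads of Chac1 per read of Trib3, and WT libraries 0.00846 and 0.00704.

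Promoter letters were read because ATF4 is known to bind, with C/EBP partners, the C/EBP-ATF response element, whose core is TGATGNAA. RefSeq windows of 300 bases (250 before to 50 after the start, GRCm38.p6) were at hand for 26 of the 31 members. On either strand, 11 of the 26 held TGATGNAA (42.3%), against 4.51% of all 27025 genes with a window. The list was drawn up by known function and holds known ATF4 targets, so this share describes the list and does not test it. The 11 were Asns, Pycr1, Slc7a11, Slc1a4, Aars, Gars, Tars, Yars, Iars, Chac1 and Trib3. Their median log2 fold change in LSK cells was 1.13, against 0.85 for the 15 without a match and 1.17 for the 5 members with no window. Of the other cytosolic synthetases and complex members listed, 0 of 8 with a window held the letters. The E-box CACGTG, the site of Myc and its partner Max, was in 4 of the 26 windows (15.4%), against 8.09% of all genes. Aars, Tars and Iars held both motifs, at letters that do not overlap, and Aldh18a1 held the E-box alone.

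The windows below are those of 4 members that rose and hold the match (Asns, Chac1, Slc7a11 and Yars), of Trib3, which holds it and fell, and of Mthfd2, which rose 6.01-fold with no match in its window. They run 5′ to 3′ along the gene's strand, and capitals mark TGATGNAA or its reverse complement. Positions are chr6:7693160-7693459, minus strand for Asns; chr2:119350992-119351291, plus strand for Chac1; chr3:50443564-50443863, minus strand for Slc7a11. For Yars the window is chr4:129189653-129189952, plus strand, for Trib3 chr2:152344011-152344310, minus strand and for Mthfd2 chr6:83317555-83317854, minus strand.
Asns: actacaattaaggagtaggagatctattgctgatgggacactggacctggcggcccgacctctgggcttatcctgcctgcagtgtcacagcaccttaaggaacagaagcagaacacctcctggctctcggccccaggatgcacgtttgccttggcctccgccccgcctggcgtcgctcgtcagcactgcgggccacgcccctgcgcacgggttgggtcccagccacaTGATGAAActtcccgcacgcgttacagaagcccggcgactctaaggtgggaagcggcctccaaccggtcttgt
Chac1: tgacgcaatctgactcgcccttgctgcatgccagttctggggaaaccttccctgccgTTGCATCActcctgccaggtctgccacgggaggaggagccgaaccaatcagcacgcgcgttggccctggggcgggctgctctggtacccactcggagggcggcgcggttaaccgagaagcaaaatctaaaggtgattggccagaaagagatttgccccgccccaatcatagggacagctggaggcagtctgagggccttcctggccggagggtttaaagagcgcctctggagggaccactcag
Slc7a11: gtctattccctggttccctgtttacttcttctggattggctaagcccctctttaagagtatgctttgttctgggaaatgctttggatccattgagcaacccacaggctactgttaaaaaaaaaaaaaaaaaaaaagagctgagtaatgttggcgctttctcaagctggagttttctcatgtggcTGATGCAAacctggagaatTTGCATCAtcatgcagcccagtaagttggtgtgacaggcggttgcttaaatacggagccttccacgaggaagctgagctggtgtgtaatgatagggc
Yars: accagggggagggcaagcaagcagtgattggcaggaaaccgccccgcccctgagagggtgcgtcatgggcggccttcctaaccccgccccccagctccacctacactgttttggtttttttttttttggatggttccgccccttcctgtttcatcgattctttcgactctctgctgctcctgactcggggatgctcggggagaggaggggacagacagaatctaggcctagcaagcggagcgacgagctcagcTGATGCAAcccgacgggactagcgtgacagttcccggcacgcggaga
Trib3: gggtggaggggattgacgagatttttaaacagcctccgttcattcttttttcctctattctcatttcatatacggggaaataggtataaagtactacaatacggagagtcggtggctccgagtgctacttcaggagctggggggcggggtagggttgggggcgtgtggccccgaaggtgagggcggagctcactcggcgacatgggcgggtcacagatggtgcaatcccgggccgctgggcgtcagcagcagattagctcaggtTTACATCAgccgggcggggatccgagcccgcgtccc
Mthfd2: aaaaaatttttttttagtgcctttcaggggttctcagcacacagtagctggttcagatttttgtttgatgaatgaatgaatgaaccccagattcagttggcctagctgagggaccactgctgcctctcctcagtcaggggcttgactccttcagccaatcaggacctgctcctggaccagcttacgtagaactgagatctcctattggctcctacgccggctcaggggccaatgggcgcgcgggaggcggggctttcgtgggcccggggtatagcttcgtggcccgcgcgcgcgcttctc

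In the Asns window the match starts 23 bases before the transcription start. In Slc7a11 a pair of matches, on opposite strands, starts 66 and 47 bases before it. The match in Chac1 lies further off, 193 bases before the start, whereas those in Yars and Trib3 lie 4 and 15 bases into the transcript. A match of letters is no evidence of binding in these cells.

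Per kilobase of principal transcript, the order of the members' levels shifted. In KO LSK cells Shmt2 led with 202 CPM per kilobase, then Psat1 with 177 and Nars with 172. In WT cells Phgdh led with 92.7 CPM per kilobase, then Slc3a2 with 89.9 and Shmt2 with 85.3. Asns was at 65.5 CPM per kilobase in KO (place 17 of 31) and at 13.4 in WT (place 24), and Psat1 took place 2 in KO and place 8 in WT.

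Lists of genes around the members, drawn up by function, all had lower median log2 fold changes than the members. Over all genes tested in LSK cells, 21.0% rose and 21.2% fell, with a median log2 fold change of -0.03. The other cytosolic synthetases and scaffold genes held 10 of 12 that rose and 0 that fell, with a median log2 fold change of 0.61. The largest rise was that of Cars (cysteine), at 86.7 and 83.9 CPM in KO and 37.2 and 32.1 CPM in WT (log2 1.30, adjusted p = 7.33e-06, edgeR). Rars (arginine), Farsb (a phenylalanine subunit) and Kars (lysine) had log2 fold changes of 0.85, 0.81 and 0.63. The mitochondrial synthetases held 9 of 17 that rose and 0 that fell, with a median of 0.45. Among these were Tars2 (threonine), Aars2 (alanine) and Yars2 (tyrosine), with log2 fold changes of 0.85, 0.92 and 0.76.

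In the list of other folate, methionine and purine genes 15 of 22 tested rose and 1 fell, with a median of 0.54. The purine synthesis enzymes Gart (502 and 558 CPM in KO, 267 and 262 CPM in WT) and Pfas had log2 fold changes of 1.0 and 1.16. Tyms, which makes thymidylate, a gene also among the proliferation markers, and Ppat, which opens purine synthesis, had 0.79 and 0.72. Among other amino acid enzymes 10 of 20 rose and 1 fell, with a median of 0.46. The polyamine enzymes Srm (444 and 460 CPM in KO, 198 and 210 CPM in WT) and Odc1 rose by log2 1.15 and 1.08, the branched-chain aminotransferase Bcat1 by 2.56 and the aspartate aminotransferase Got1 by 1.33. The gene that fell was Glul, glutamine synthetase, chosen after its value was seen, with 46.2 and 55.2 CPM in KO and 106 and 116 CPM in WT.

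The other amino acid transporters did not move one way: 5 of 15 tested rose and 3 fell, with a median of 0.10. Slc7a3, an arginine carrier, had 41 and 35 reads in KO and 0 reads in both WT libraries. Slc7a8 (LAT2) rose by log2 0.84, while Slc43a2, a carrier of large neutral amino acids, fell by 0.79 on the log2 scale and Slc38a5 was at 0.261 and 0.905 CPM in KO, against 4.31 and 4.88 CPM in WT.

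**Figure D2:**
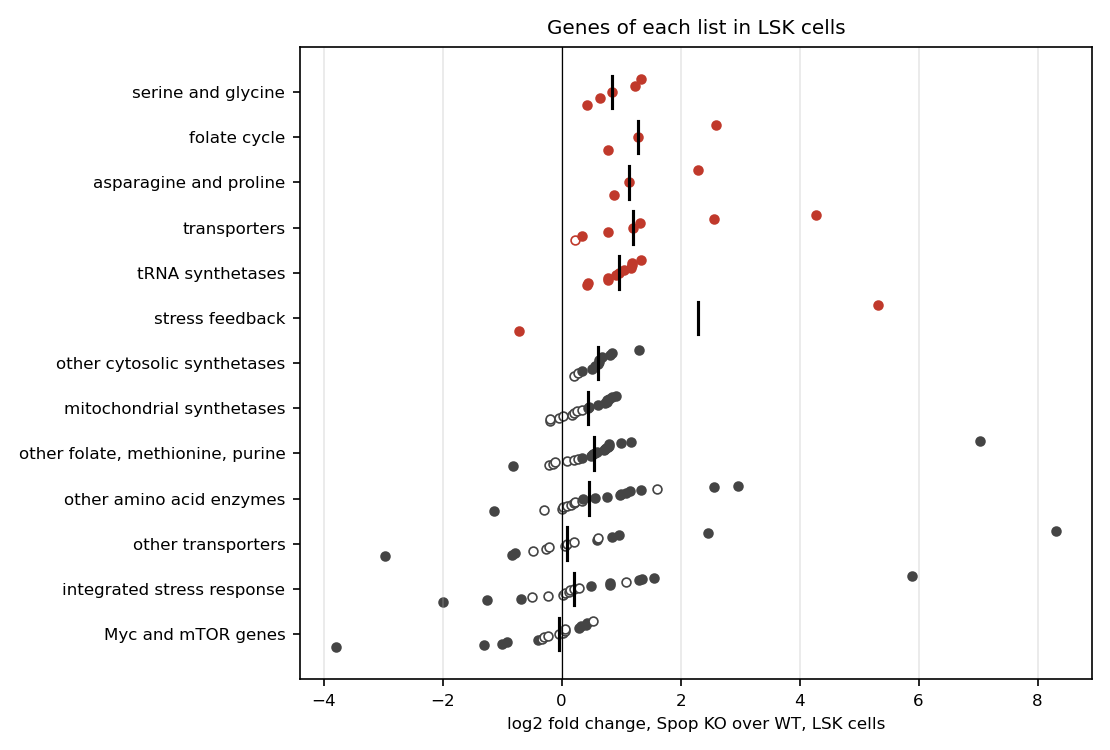
Log2 fold changes (KO over WT) of single genes in LSK cells by list, members in red and other lists in grey; filled points passed at an adjusted p under 0.05 and bars are medians. The member groups lie right of 0 except Trib3, whereas the lists of other transporters, stress response and Myc and mTOR genes spread to both sides; fitted values of genes with almost no reads in WT, at the far right, are no bounds.

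The stress pathway itself was mixed. Atf4 transcripts were at 177 and 163 CPM in KO LSK cells and at 87.4 and 106 CPM in WT cells (log2 0.81, SE 0.114, adjusted p = 1.22e-04, edgeR). Ddit3, which encodes CHOP, was at 12.5 and 10.3 CPM in KO and at 17.6 and 14.6 CPM in WT (log2 -0.50, adjusted p = 0.071). It passed with upper-quartile scaling (0.0322) and without the first KO library (0.0471). Of 19 genes tested in the list 7 rose and 3 fell, with a median of 0.21. Vldlr, a lipoprotein receptor gene that ATF4 is known to raise, rose by log2 1.55 and the transcription factor Cebpb by 1.30. Ddit4, the stress-induced brake on mTORC1, fell to 20.7 and 24.5 CPM in KO, against 97.4 and 82.9 CPM in WT (log2 -2.00). Ppp1r15a (GADD34), which reverses the phosphorylation of eIF2, had a log2 fold change of -1.24. ATF4 protein and eIF2 phosphorylation were not measured.

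Of the 17 Myc and mTOR genes 4 rose and 5 fell, where 21.0% and 21.2% of all genes did. Their median was -0.04, against -0.03 over all genes. Without the first WT library 0 rose and 3 fell. Myc was at 1091 and 1049 CPM in KO and at 765 and 835 CPM in WT (log2 0.42, adjusted p = 0.00357), and lost its call without the first WT library (0.0870). The Myc antagonist Mxd4 had a log2 fold change of -1.31. Castor2, a relative of the arginine sensor Castor1, was at 12.0 and 15.9 CPM in KO and at 25.6 and 30.4 CPM in WT.

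In neutrophils no member passed the test. Of 30 members tested 0 rose and 0 fell (edgeR), as for all 12836 genes tested (0%). At an unadjusted p under 0.05 edgeR found 1 member (Slc7a5), against 13.9% of all genes. DESeq2 found 2 members at an unadjusted p under 0.05 (12.0% of all genes) and 0 after adjustment, where it called 932 genes (6.72%). Members summed to 1340, 1167 and 832 CPM in the KO libraries and to 1112 and 1007 CPM in the WT libraries, so the genotypes overlapped. Their median log2 fold change was -0.30, against 0.02 over all genes. All KO libraries lay above all WT libraries for 5 members and below them for 6, orders that 17.0% and 17.5% of all genes showed.

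Markers of some other cell types were ordered by genotype, though none passed the test. All KO libraries lay below all WT libraries for 8 of 8 B cell markers tested (3.32 to 10.6 CPM in KO, 77.6 and 1896 CPM in WT) and for 5 of 5 MHC class II markers (17.0 to 85.6 CPM in KO, 542 and 24990 CPM in WT). The same order held for 7 of 8 T and NK cell markers and for 7 of 10 monocyte and macrophage markers, with 1 of the latter above. Of 11 neutrophil markers 5 lay above WT in all KO libraries and 6 overlapped. All 10 erythroid and all 7 granulocyte precursor markers overlapped, as did 14 of 15 proliferation markers. The part of these markers in the members' values was not tested.

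Asns was among the 5 that lay above. It was at 106, 110 and 82.6 CPM in KO neutrophils and at 62.9 and 14.4 CPM in WT neutrophils (log2 1.37, interval -0.13 to 2.86, adjusted p = 0.396, edgeR). Without the first WT library it passed (log2 2.85, adjusted p = 0.0410), and without the second, which stood apart by its B cell markers, its log2 fold change was 0.63. Slc7a5 was at 54.4, 44.5 and 36.2 CPM in KO and at 22.0 and 25.2 CPM in WT (log2 0.93, adjusted p = 0.329). Slc38a2 was at 256, 222 and 127 CPM in KO and at 109 and 84.1 CPM in WT (log2 1.06, adjusted p = 0.375). Lars was at 52.7, 38.2 and 28.7 CPM in KO, just above 27.5 and 26.4 CPM in WT.

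Trib3 was the fifth, with 110, 205 and 78 reads in KO and 63 and 0 reads in WT. It passed without the first WT library (adjusted p = 0.0327), which left a WT library with no read of it. These members were higher in each KO library, but the WT libraries differed among themselves by up to several-fold.

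The 6 members that lay below WT in all KO libraries were Phgdh, Psph, Slc7a11, Slc1a5, Sars and Yars. Phgdh was at 15.6, 7.74 and 5.26 CPM in KO and at 20.4 and 16.4 CPM in WT (log2 -0.95, adjusted p = 0.473, edgeR). Slc7a11 was at 13.1, 7.15 and 20.7 CPM in KO and at 25.6 and 27.0 CPM in WT (log2 -0.95, adjusted p = 0.443). Sars was at 54.2, 61.2 and 44.3 CPM in KO and at 77.3 and 89.7 CPM in WT (log2 -0.65, adjusted p = 0.449). Psph, Slc1a5 and Yars had log2 fold changes of -0.47, -0.66 and -0.57. For Yars the gap was narrow, with 26.7 CPM in the first KO library and 27.4 CPM in the second WT library.

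**Figure D3:**
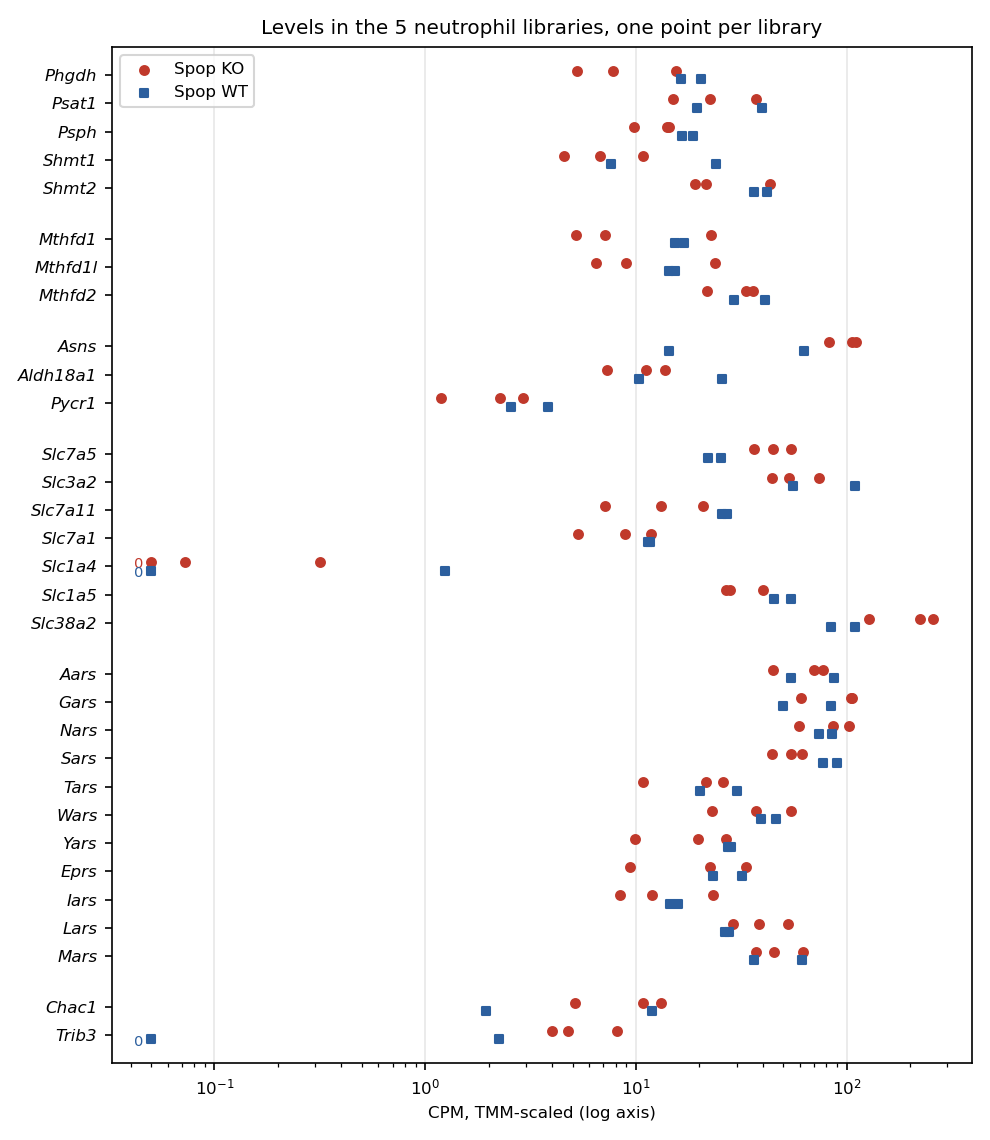
Levels of the members in neutrophils, 1 point per library, on a log axis of TMM-scaled CPM, with a 0 beside libraries without a read, which are drawn at the left edge. Circles are the 3 KO and squares the 2 WT libraries, and they overlap in most rows. KO lies right of WT for Asns, Slc7a5, Slc38a2, Lars and Trib3, and left of WT for Phgdh, Psph, Slc7a11, Slc1a5, Sars and Yars.

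Among the members whose libraries overlapped were the folate enzymes. Mthfd2 was at 33.3, 21.8 and 35.8 CPM in KO neutrophils and at 40.8 and 29.0 CPM in WT neutrophils. Chac1 was at 10.9, 5.14 and 13.1 CPM in KO and at 11.8 and 1.93 CPM in WT. Slc1a4 was not tested, with 2, 8 and 0 reads in KO and 0 and 41 reads in WT. The neutrophil and LSK tables were counted under different gene identifiers and scaled apart, so levels are only set side by side. Slc7a11, near the limit in WT LSK cells, was readily detected in neutrophils of both genotypes, while Phgdh, at 162 to 287 CPM in LSK libraries, was at 5.26 to 20.4 CPM in neutrophil libraries.

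The difference between the genotype effects was tested in a single fit of all 9 libraries. After adjustment 0 of 31 members passed (edgeR), and 0.0299% of 13387 genes did. At an unadjusted p under 0.05 there were 18 members, against 15.7% of all genes. The LSK effect exceeded the neutrophil effect by 2.85 on the log2 scale for Mthfd2 (SE 0.438, adjusted p = 0.148), by 5.26 for Slc7a11 (0.148) and by 4.88 for Chac1 (0.176). With DESeq2, 18 members had an unadjusted p under 0.05 (13.1% of all genes) and these 3 passed after adjustment (1.75e-05, 2.95e-05 and 0.00502), as did 944 genes in all (8.04%), so 3 of 31 is near that share. Without the first WT neutrophil library, the differences were 2.53 for Mthfd2, 2.11 for Aldh18a1, 1.71 for Slc3a2, 5.26 for Slc7a11 and -11.44 for Trib3. They were picked as the members called in that fit, in which calls over all genes rose as well. Only the second WT neutrophil library, which stood apart by its B cell markers, then stands for WT. With all 9 libraries, Asns and Slc7a5 had smaller differences, of 0.99 (interval -0.82 to 2.80, adjusted p = 0.565, edgeR) and 0.43 (interval -0.45 to 1.30, adjusted p = 0.614). Both genes had higher estimates in KO in both populations.

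**Figure D4:**
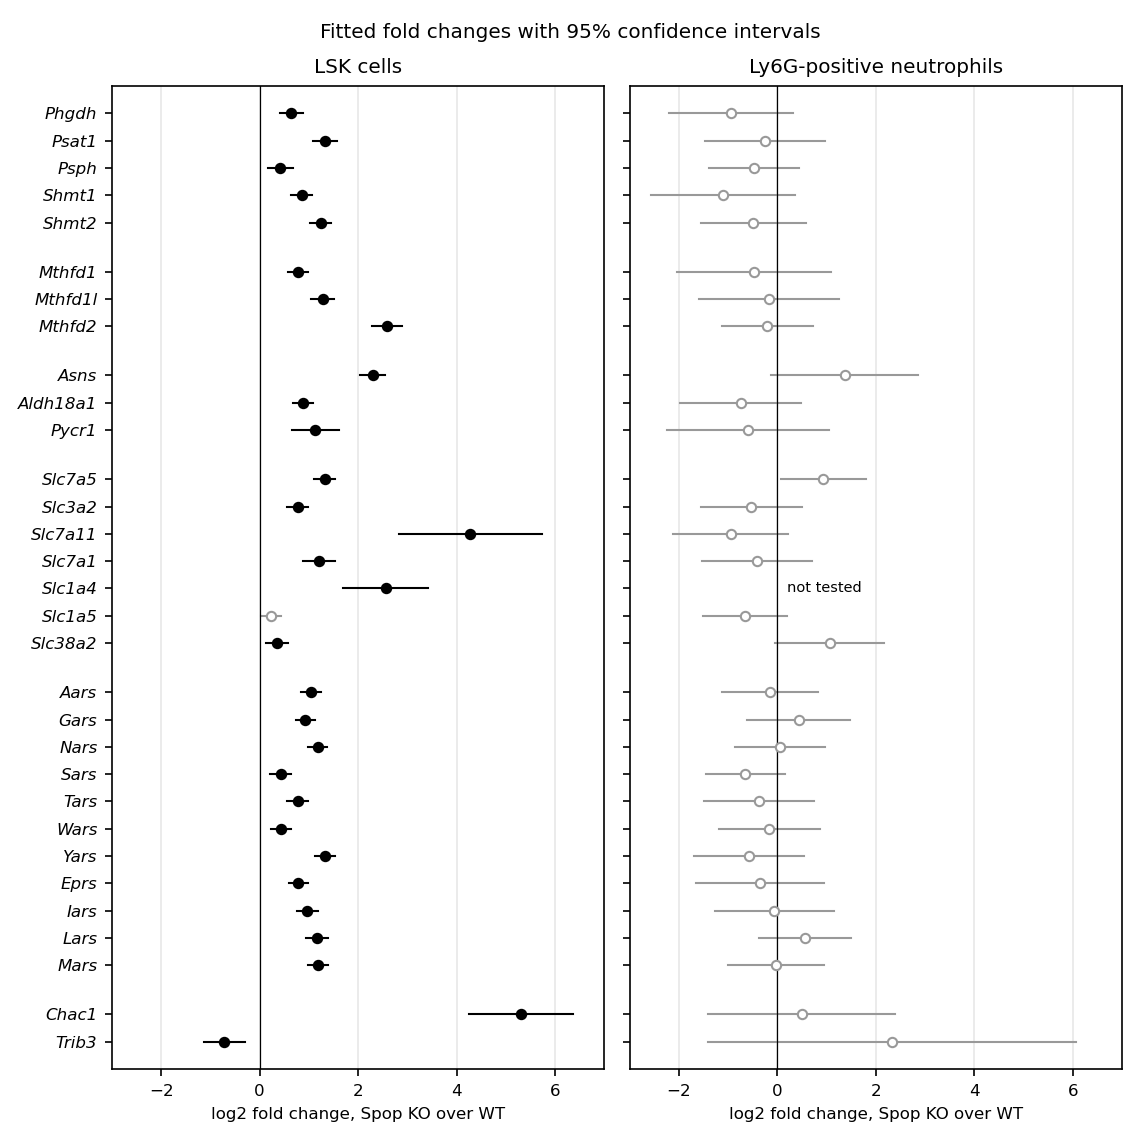
Fitted log2 fold changes (KO over WT) of the members with 95% confidence intervals in LSK cells (left) and neutrophils (right), on the same scale; filled black points passed at an adjusted p under 0.05. Most intervals are wider in neutrophils, where no member passed and some estimates change sign between settings, while Slc1a5 alone did not pass in LSK cells.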

How the data were processed

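Bulk RNA-seq libraries of sorted LSK cells and neutrophils were made with RNeasy Micro columns and the SMART-Seq v4 kit, per the labels' protocols. The tools listed in the submitters' processing notes are bcl2fastq, STAR, featureCounts and DESeq2, with the builds mm10 and GRCm38; their versions and the strand setting are not given there. Every test used raw read counts per gene as the authors deposited them. The deposited normalized values (unit: signal) served as a check: for all 31 members they were the count over 1 scale factor of the library.

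LSK identifiers were named through GENCODE M21 (GRCm38; 35412 of 37187 matched), and 34431 genes were joined to the neutrophil table by symbol. Groups follow the titles. Separate animals are not stated for the replicates, so the p-values reflect only how these libraries vary, possibly for technical reasons. No pair of replicates agreed within sampling noise (lowest chi-square per gene 9.88).

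Counts were tested within a population with edgeR 4.0.16 (R 4.3.3): TMM factors, the package's filter by group, a robust quasi-likelihood F test and Benjamini-Hochberg adjustment over all genes at 0.05. The difference between populations was an interaction term in a fit of all 9 libraries. DESeq2 1.42.0 was an alternative. The procedure was tested on simulated data. These did not model the libraries that stood apart, and for the interaction term they gave both populations the same spread. Intervals on counts, and the floor of 3 reads (0.109 to 0.159 CPM), reflect counting error alone, because PCR copies cannot be told from separate molecules. Alternatives were other scalings, no filter, a shared spread, a replicate block and each library left out. The members, lists and motifs were chosen with earlier results of these data known; so were the ratios within libraries and the promoters shown. In the text, neutrophil fold changes are given only where the genotypes did not overlap, a limit set after estimates of other members were seen to change sign between settings. The text names all members, the 4 genes of smallest p in each other list (some are not reported here), Glul and Mthfd2l, chosen after their values were seen, and Atf4, Ddit3, Myc and Spop.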

Additional observations from a re-analysis of the deposited data

Results flagged for a closer look

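For 7 of 30 members tested in both populations the genotypes separated completely in opposite directions, as they did for 11.7% of the 10840 genes tested in both. In LSK cells all KO libraries lay above WT for Phgdh, Psph, Slc7a11, Slc1a5, Sars and Yars, and in neutrophils all lay below; Trib3 did the reverse. The LSK effect minus the neutrophil effect was 1.62 for Phgdh, 0.93 for Psph, 5.26 for Slc7a11, 0.93 for Slc1a5, 1.12 for Sars, 1.93 for Yars and -2.98 for Trib3 on the log2 scale. None of the 7 passed the edgeR test of the difference over all 9 libraries (adjusted p of 0.148 to 0.465). Slc7a11 passed with DESeq2 (2.95e-05). Without the first WT neutrophil library the differences were 5.26 for Slc7a11 and -11.44 for Trib3. That fit leaves only the second WT library, which stood apart by its B cell markers. Slc7a11 had 4 and 2 reads in WT LSK libraries, and Trib3 had 0 reads in 1 WT neutrophil library, so their sizes are no bounds.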

How the results depend on the processing

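In LSK cells 29 members rose and 1 fell also with DESeq2 size factors, no filter, the DESeq2 Wald test and the replicate block; no member changed direction under any alternative run. With upper-quartile scaling 28 rose and 1 fell. In a single fit of all 9 libraries 0 members rose and 0 fell, as did 0 and 0 of all genes, since the spread is then shared with the neutrophil libraries; the members' median log2 fold change was 1.05 there. Leaving out a library in turn left 27 to 30 members higher and 0 to 1 lower, and 1848 to 2902 genes higher and 1676 to 2816 lower over all genes (1676 without the first WT library); the remaining library of a genotype is then assumed to vary like the others.

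In neutrophils 0 members were called under the other scalings, no filter, DESeq2, the fit of all 9 libraries and the replicate block. Leaving out a library in turn gave 0 to 2 members higher and 0 to 0 lower, the 2 without the first WT library (Asns and Trib3). Over all genes, higher and lower calls were 252 and 680 with DESeq2, 76 and 258 without a filter, 114 and 414 in the fit of all 9 libraries, and 86 and 248 with the replicate block; leaving out a library gave 0 to 207 and 0 to 394. Without both libraries that stood apart, a setting chosen after seeing the data, 0 members were called.

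For the difference between populations, members called were 3 with DESeq2 and 0 to 5 with a library left out (5 without the first WT neutrophil library), and 0 otherwise. All genes called were 4, or 944 with DESeq2, 10 without a filter, 0 with the replicate block and 0 to 1349 with a library left out. Without the first WT neutrophil library, only the second, which stood apart by its B cell markers, stands for WT. The causes were not tested. Same-numbered libraries share only a number in the labels; their deviations correlated at 0.00393 in LSK cells and 0.130 in neutrophils. In neutrophils the estimates of some members whose genotypes overlap changed sign between settings, and their fold changes are plotted but not reported in the text. Low-count members such as Slc7a11 and Chac1 in WT LSK cells are the least precise.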
